A study of Mus musculus with 3 samples.

Results

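The interleukin-6 (IL-6) and leukemia inhibitory factor (LIF) family was followed with its receptors in mouse embryonic fibroblasts (MEF) treated with n-butylidenephthalide (BP), a compound from Angelica sinensis. The rule takes the members by name and uses no measured value, though it was written with earlier results of these data known. They were 10 genes of the 35696 gene names on the array: the ligands Il6, Lif, Osm, Il11, Clcf1 and Ctf1 and the receptor chains Il6st, Lifr, Osmr and Il6ra. Every array probe named for them was used, 12 of 55681 probes, with 3 for Lifr and 1 for each other gene.

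MEF are primary cultures grown from minced embryos of C57BL/6 mice, and the study removed internal organs, heads and legs first. The 3 groups were untreated MEF (control, described as DMSO in the study's text and as no treatment in the labels), MEF in medium with 10 µg/ml BP (BP10) and MEF in medium with 40 µg/ml BP (BP40). All shared the same serum-containing medium, and no number of pooled embryos or treatment time was found in the sources used here. Total RNA was labeled with Cy3 and hybridized to 1 array per condition.

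Cytokines of this family signal through receptor complexes that share gp130, the product of Il6st. IL-6 and IL-11 first bind a private receptor chain and then bring gp130 chains together, LIF, cardiotrophin-1 and CLCF1 pair gp130 with LIFR, and oncostatin M pairs it with OSMR. The complexes activate JAK kinases and STAT3, and SOCS3 is a brake induced by the same route. LIF is best known for holding mouse embryonic stem cells undifferentiated, and the study examined BP as a substitute for it.

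The oligonucleotides behind the values that set the main results are shown first, because each result rests on 1 such sequence. The first 30 of 60 bases are given in lower case as the scanner files print them, with positions on mm9, the build of those files. No gene model of that build was used here, so exon or UTR is not stated. The 3 Lifr probes are named by the base of their transcript at which they begin, 3323 and 9492 in transcript variant 1 and 2572 in transcript variant 2.
Osm, chr11:4140146-4140205, plus strand: tgtcccctactaccactcaggacttcaagg
Clcf1, chr19:4222480-4222539, plus strand: gttcagccaaggacttcaaccggcttaaga
Il11, chr7:4724847-4724906, minus strand: ctggggtctctatgaaatctgttcacagtg
Lifr, base 2572, chr15:7135072-7135131, plus strand: taaaaacttggaaatgtatccaggcctaac
Lifr, base 3323, chr15:7141150-7141209, plus strand: agaacaaaccaaatgactaaccaggtcacc
Lifr, base 9492, chr15:7147319-7147378, plus strand: catagatgatgtaaatagcctaagacactg

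Of the members, 4 are genomic neighbors. Osm and Lif have no protein-coding gene between them in the RefSeq table, and their probes are 31.8 kb apart on chromosome 11. Osmr and Lifr are likewise adjacent on chromosome 15, with at least 371 kb between their probes.

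Values were read as scanner signal, the background-corrected brightness of a spot, and as log2 level, the log2 signal relative to the 75th percentile of all gene spots on the same array. A ratio is a difference of 2 log2 levels, with an error carried over from the scanner software's own estimate for each spot, which covers the measurement of the spot and not differences between cultures. With 1 array per condition no SD between cultures and no test was possible. A probe was counted as past 2-fold when its log2 ratio reached 1 in either direction and 1 or both arrays showed it well above background. Over the 3 arrays, 68.3 to 81.7% of gene spots were well above background, the 75th percentile lay at signals of 1237 to 1765, and no spot was saturated. Between spots of 1 probe, the median SD of log2 signal was 0.14 on the control array and 0.09 on both BP arrays. BP10 and BP40 were scanned together and the control in another session, so scan and BP cannot be told apart in any ratio to the control. The BP10 and BP40 ratios also share that control array and are given side by side only.

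All 12 member probes were well above background on all 3 arrays. Against the control, Osm was lower at both doses, Clcf1 was higher at both and Il11 was higher at BP40 alone. At BP10, 1 member probe was past 2-fold lower (Osm) and 1 higher (Clcf1), where 12.1% and 3.55% of the 45462 probes tested were lower and higher. At BP40, Osm was the 1 member probe past 2-fold lower, beside 12.4% of 45558 probes, and none was past it higher, beside 3.28%. Between the doses, 1 member probe (Il11) was past 2-fold higher at BP40 than at BP10, beside 2.5% of 39586 probes, and none lower, beside 3.2%. The median log2 ratio of the 12 probes was -0.45 at BP10 and -0.19 at BP40, and that of all probes tested was -0.19 and -0.15.

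**Figure D1:**
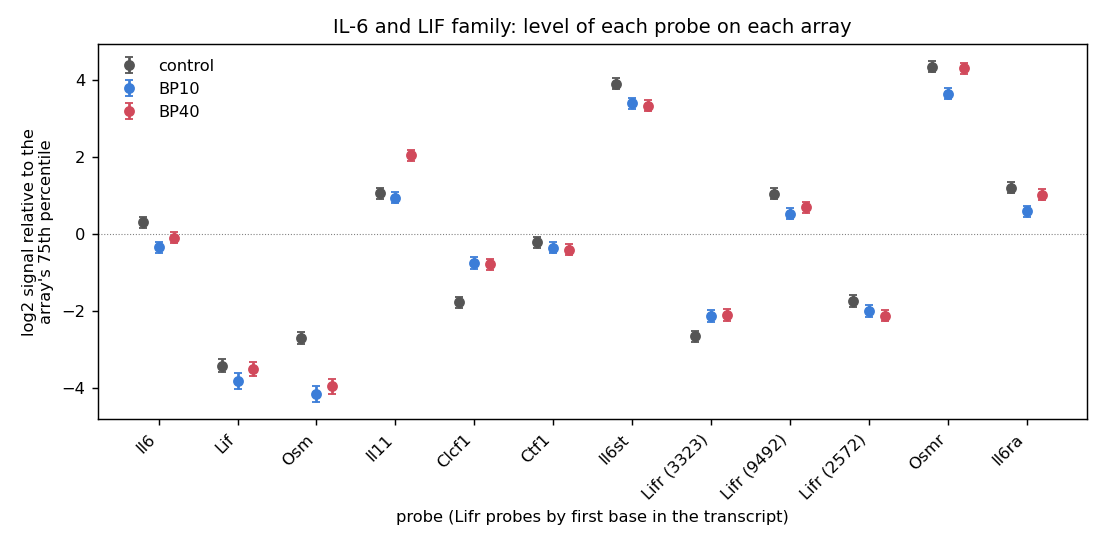
Log2 signal of each member probe relative to the 75th percentile of its array (vertical axis), on the control, BP10 and BP40 arrays, with bars for the scanner error of the spot. Osm is lower and Clcf1 higher on both BP arrays than on the control array, and Il11 is higher on the BP40 array only.

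By a looser reading, the ratio passed 2 times its scanner error for 8 member probes at BP10, 6 lower and 2 higher, and for 5 at BP40, 2 lower and 3 higher. The share of all probes beyond that limit, in either direction, was 38.8% at BP10 and 36.9% at BP40. Between the doses, 3 members passed it (Il11, Osmr and Il6ra), all higher at BP40, beside 25.2% of all probes in either direction. Of all probes tested, 36.1% had a ratio above 0 at BP10, 38.4% at BP40 and 57.8% between the doses. Scanner errors are larger for dim probes, and those of the member ratios to the control were 0.20 to 0.26. Member counts and shares of all probes are therefore not like for like.

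Among the ligands, Osm, which encodes oncostatin M, had the largest ratio. Its signal was 272 without BP, 80.6 with BP10 and 80.2 with BP40, so both BP arrays lay well below the control and close to each other. The log2 ratio was -1.45 ± 0.26 (scanner error) at BP10 and -1.25 ± 0.25 at BP40, or 2.73-fold and 2.37-fold lower. The probe is dim, and probes of its brightness were lower as a class: of the probes in its brightness class, 1 of 20 equal classes, 22.4% were past 2-fold lower at BP10 and 20.8% at BP40, and the class median was -0.44 and -0.42. Relative to that median the Osm ratios were -1.01 and -0.83. Under quantile normalization they were -1.07 and -0.89.

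The probes with a pattern nearest to that of Osm, by Euclidean distance over both log2 ratios to the control among 11510 probes of like brightness, were those of Fam83a at a distance of 0.0013, Kcnj12 at 0.018 and Olfr805 at 0.021. Within a distance of 0.25 there were 473 probes, so the pattern was a common one at this brightness.

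Oncostatin M is made mainly by macrophages, T cells and neutrophils, so their markers were read beside it. All 10 macrophage markers were well above background on all 3 arrays, and their summed linear level relative to the 75th percentile was 34.2 on control, 27.2 on BP10 and 30.3 on BP40. Without Itgam, the brightest of them, it was 11.4, 10.6 and 13.5. The Itgam probe in the sum read 40148 on control, while other Itgam probes read 483 and 363 there. With 1 probe per gene, 1 macrophage marker was past 2-fold, beside 3.21% of all genes higher at BP10 and 3.15% at BP40. It was Lyz2, a macrophage lysozyme, higher at both doses, with ratios of 1.09 and 1.25. At each dose 3 of the 10 had a ratio above 0 and 7 below, where 34.1% and 40.0% of all genes were above 0. A dimmer Itgam probe was past 2-fold lower at BP10, at -1.10. Of 9 T cell and granulocyte markers on the array, 7 were above background on control and 6 on each BP array. Their summed level was 11.6, 6.74 and 7.85, and S100a8 and Cd3g were above background on none. With 1 probe per gene, Cd3e was past 2-fold lower at BP10, at -1.12, beside 12.2% of all genes, and none was called at BP40. The 11 fibroblast markers were all above background, with a summed level of 1529, 1102 and 1182. In RNA of a whole culture, fewer cells of a type and less RNA per cell cannot be told apart, and the part of these cells in the Osm ratio was not tested.

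Clcf1 encodes cardiotrophin-like cytokine factor 1, a ligand that also uses the CNTF receptor. Its signal was 517 on control, 851 on BP10 and 715 on BP40, above the control on both BP arrays even before scaling. The log2 ratio was 1.02 ± 0.21 at BP10 and 0.98 ± 0.21 at BP40, just past and just short of 2-fold. In its brightness class 3.03% of probes were past 2-fold higher at BP10.

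With the scaling used throughout, Il11 was the member past 2-fold between the doses. This cytokine is known for roles in bone, hematopoiesis and fibroblasts. Its signal was 3665 on control, 2745 on BP10 and 5076 on BP40, the highest on BP40 and the lowest on BP10. Its log2 ratio to the control was -0.11 ± 0.20 at BP10, within the scanner error of 0, and 0.98 ± 0.20 at BP40. Between BP40 and BP10, which were scanned together, it was 1.10 ± 0.20, or 2.14-fold higher at BP40. Of probes in its brightness class, 1.08% were past 2-fold higher in that comparison. The difference fell to 0.18 when arrays were scaled on the E1A spike-in probes, a scaling that moved the median of all probes by -0.91.

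Il6, the namesake of the family and a marker of the inflammatory fibroblast, was lower on both BP arrays by less than 2-fold. Its probe is printed on 2 spots, which read 2081 and 2287 on control, 1193 and 1071 on BP10 and 1125 and 1192 on BP40. Both control spots were above all BP spots, also on the log2 level scale, where the arrays did not overlap. The log2 ratio was -0.65 ± 0.20 at BP10 and -0.40 ± 0.20 at BP40.

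Lif itself was dim. Its signal was 166 on control, 102 on BP10 and 109 on BP40. After scaling, its log2 ratio was -0.39 ± 0.26 at BP10 and -0.09 ± 0.24 at BP40, and neither passed 2 times its error. At BP10 it was close to the median of its brightness class, which is that of Osm, at 0.05 above it, and at BP40 it was 0.32 above it.

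Ctf1 encodes cardiotrophin-1, a cytokine of heart and muscle. Its probe is printed on 10 spots, which spanned signals of 1099 to 1817 with a median of 1528 on control, 1020 to 1201 with a median of 1113 on BP10, and 861 to 1004 with a median of 941 over the 9 BP40 spots used. On the log2 level scale the mean was -0.21 ± 0.21 (SD of 10 spots) on control, -0.36 ± 0.07 (10 spots) on BP10 and -0.40 ± 0.07 (9 spots) on BP40, and the ranges of the 3 arrays overlapped. A BP40 spot at 1733 was flagged as an outlier by the scanner software and left out. With it the BP40 mean was -0.32. Spots of 1 array are repeat readings of 1 RNA sample and not replicates of a condition.

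**Figure D2:**
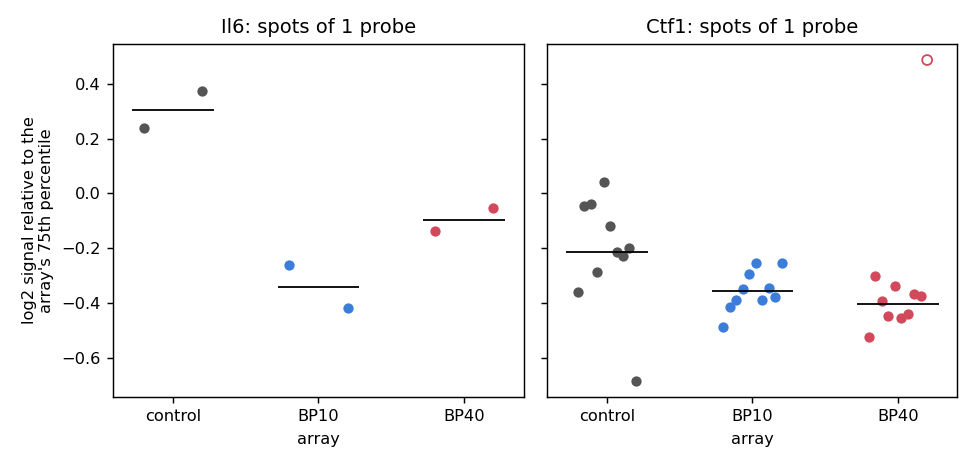
Log2 level of each printed spot of the Il6 probe (left, 2 spots per array) and the Ctf1 probe (right, 10 spots per array), with a line at the mean of the spots used and an open circle for the spot flagged as an outlier. The Il6 spots of the control array lie above those of both BP arrays, and the Ctf1 spots overlap, with the widest spread on the control array.

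None of the 6 receptor probes was past 2-fold in any comparison. Il6st, which encodes gp130, read 26391 on control, 15037 on BP10 and 12433 on BP40. Its log2 ratio was -0.51 ± 0.20 at BP10 and -0.57 ± 0.20 at BP40, both beyond 2 times the error, with a difference between the doses of -0.06.

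Osmr, the oncostatin M receptor chain, read 35782, 17804 and 24413. Its log2 ratio was -0.70 ± 0.20 at BP10 and -0.04 ± 0.20 at BP40, so that BP40 was level with the control and 0.67 ± 0.20 above BP10. Il6ra, the private chain for IL-6, read 4047, 2148 and 2505, with ratios of -0.61 ± 0.20 and -0.18 ± 0.20 and a difference of 0.43 ± 0.20 between the doses. For both chains BP10 was the lowest array.

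Lifr, the LIF receptor chain, had probes that disagreed. The probe at base 9492 read 3640 on control, 2053 on BP10 and 1999 on BP40, with ratios of -0.52 ± 0.20 and -0.35 ± 0.20. The probe at base 3323, in the same transcript variant, read 280, 328 and 287, and its ratios were 0.53 ± 0.21 and 0.55 ± 0.21. The probe at base 2572 of transcript variant 2 read 530, 359 and 285, with ratios of -0.26 ± 0.21 and -0.38 ± 0.21.

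The probe at base 3323 stood apart from both others at both doses. It differed from the probe at base 9492 by 1.06 ± 0.29 at BP10 and 0.90 ± 0.29 at BP40, and from the probe at base 2572 by 0.79 ± 0.30 and 0.93 ± 0.30. The probes at bases 9492 and 2572 differed by -0.26 ± 0.29 at BP10 and 0.03 ± 0.29 at BP40, within the error. No single direction can therefore be given for Lifr.

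**Figure D3:**
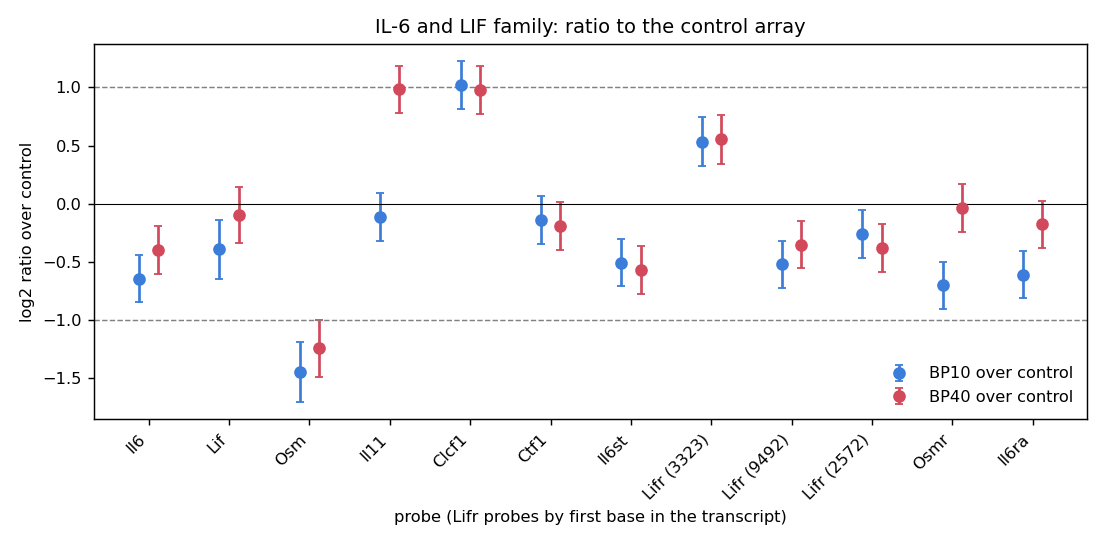
Log2 ratio of each member probe to the control array at BP10 and BP40, with bars for the scanner error of the ratio and dashed lines at 2-fold. Osm lies below the lower line at both doses, Clcf1 and, at BP40, Il11 lie at the upper line, and the 3 Lifr probes fall on both sides of 0.

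**Figure D4:**
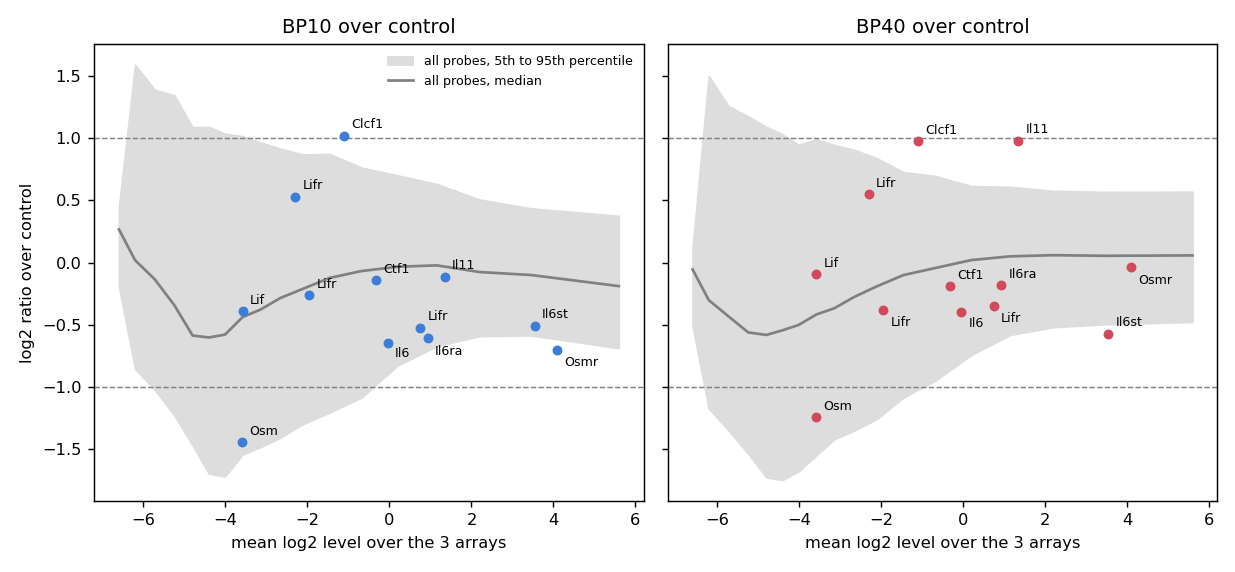
Log2 ratio of the member probes (points) to the control array against their mean log2 level over the 3 arrays, with the median (line) and the 5th to 95th percentiles (band) of all probes in 20 classes of brightness. At the brightness of Osm the median lies below 0 and the band is wide and holds the Osm point at both doses. Clcf1 lies above the band at both doses and Il11 above it at BP40. Osmr lies below the band at BP10 and Il6st below it at BP40.

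Of 11 listed other ligands and receptors of gp130, 10 were on the array, and with 1 probe per gene 1 was past 2-fold higher at BP10 (Il27ra) and none lower, beside 3.21% and 12.2% of 30581 genes. At BP40 none was called in either direction, beside 3.15% higher and 12.2% lower of 30610 genes, with Il31 not well above background on either BP array and only a bound there. The median ratio was -0.12 at BP10 and 0.04 at BP40, and that of all genes was -0.20 and -0.13. Il11ra1, the private chain for IL-11, was bright at 30944, 21343 and 26066, with ratios of -0.23 and 0.27, and was singled out after its values were seen.

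Il27ra, the IL-27 receptor chain, read 81.6, 146 and 56.6, the highest on BP10, with a log2 ratio of -1.16 ± 0.31 between BP40 and BP10. It was the 1 gene of this list past 2-fold lower between the doses, beside 2.66% of 27484 genes, and none was higher, beside 2.45%. Cntfr, the receptor chain for CNTF and CLCF1, had a second probe at 48.2, 96.8 and 31.5 that was not well above background on BP40. Taken against that dim signal, it was 2.66-fold lower there than on BP10, a log2 ratio of -1.41 ± 0.56. Its main probe, at 82.5, 105 and 47.1, had a ratio of -0.95 ± 0.33 between the doses.

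Among the 14 transducers and brakes, all on the array, 1 gene was past 2-fold higher at both doses, the kinase Tyk2, beside 3.21% of all genes higher at BP10 and 3.15% at BP40. It read 475, 1000 and 835, with ratios of 1.38 ± 0.21 and 1.33 ± 0.21. The kinases Jak1 (ratios -0.43 and 0.01) and Jak2 (-0.47 and -0.25) were not past it. The brighter Stat3 probe had ratios of -0.42 and 0.03 and the dimmer one 0.31 and 0.08.

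Socs3, the brake that STAT3 induces, was the 1 gene of this list past 2-fold lower at BP10, beside 12.2% of all genes. It read 15435 on control, 5767 on BP10 and 9460 on BP40, in the same order of arrays as Osmr and Il6ra. A higher log2 level on BP40 than on BP10 was common, at 60.7% of all genes tested. Its ratio was -1.12 ± 0.20 at BP10 and -0.19 ± 0.20 at BP40, with 0.92 ± 0.20 between the doses. The median ratio of the list was -0.33 at BP10 and 0.00 at BP40.

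Of 23 genes known to respond to STAT3, all on the array, 22 were above background on at least 1 array, with Fgg on none. At BP10, 2 were past 2-fold lower, Bcl3 at -1.34 ± 0.20 and Cebpd at -1.20 ± 0.20, and 1 was higher, Saa3 at 1.33 ± 0.25, of 22 tested, beside 12.2% lower and 3.21% higher over all genes. At BP40, 2 were lower, Saa3 (against its own dim signal) and Ccl2, the latter by 2.01-fold, and none was higher, beside 12.2% and 3.15%. Bcl3 and Cebpd encode transcriptional regulators and Ccl2 a monocyte-attracting chemokine, and these 3 fell outside the rule for named genes and were named after their values were seen.

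Saa3, an acute-phase serum amyloid gene, differed most between the doses in this list. It read 128 on control, 260 on BP10 and 36.5 on BP40, where it was not well above background. Taken against that dim signal, it was 6.15-fold lower on BP40 than on BP10, a log2 ratio of -2.62 ± 0.41. It was the 1 gene of the list past 2-fold between the doses. The median ratio of the list was -0.11 at BP10 and -0.10 at BP40, beside -0.20 and -0.13 over all genes.

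The ligand genes that carried an AP-1 motif upstream are shown last, as the stretch of sequence upstream of 3 of the ligands above. Promoter windows of 250 bases before the start were taken from RefSeq (GRCm38.p6) for 8 of 10 members, in 10 windows. Osm and Clcf1 had no window and were not searched. Il11 and Lifr each had more than a single window, and the Il11 window not shown held no match. The windows were searched on both strands for STAT (TTCNNNGAA), NF-kB (GGGANTTTC), AP-1 (TGANTCA), C/EBP (TTGCNNAA), CRE core (ACGTCA) and the antioxidant response element (TGACNNNGC), of which the AP-1 and antioxidant letters can overlap. Capitals mark every match.
Il6, chr5:30012864-30013113, plus strand: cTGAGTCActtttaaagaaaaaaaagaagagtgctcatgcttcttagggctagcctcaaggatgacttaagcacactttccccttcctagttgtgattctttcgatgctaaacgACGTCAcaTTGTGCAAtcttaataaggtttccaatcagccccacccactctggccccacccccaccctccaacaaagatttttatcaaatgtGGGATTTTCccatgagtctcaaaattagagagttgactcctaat
Lif, chr11:4257318-4257567, plus strand: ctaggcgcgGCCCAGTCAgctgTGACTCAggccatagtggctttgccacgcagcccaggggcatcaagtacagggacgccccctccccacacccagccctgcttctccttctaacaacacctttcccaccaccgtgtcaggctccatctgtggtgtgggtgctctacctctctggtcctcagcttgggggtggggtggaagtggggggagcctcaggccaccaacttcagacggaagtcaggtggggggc
Il11, chr7:4778142-4778391, minus strand: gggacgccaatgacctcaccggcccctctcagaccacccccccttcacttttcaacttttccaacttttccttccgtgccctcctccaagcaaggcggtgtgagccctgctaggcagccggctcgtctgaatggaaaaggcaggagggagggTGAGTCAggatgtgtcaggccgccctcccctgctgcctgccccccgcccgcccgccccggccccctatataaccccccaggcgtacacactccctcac

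AP-1 letters stood in 3 of 10 member windows, those of Il6, Lif and Il11, and in 6.75% of all 32851 windows. In Il6 they lie 243 to 249 bases before the start, in Lif 222 to 228 and in Il11 92 to 98. The NF-kB letters were in 1 member window, 36 to 44 bases before the Il6 start, and in 0.941% of all windows. The Il6 window also held the CRE core (6.47% of all windows) and C/EBP letters (9.56%), and Lif and a Lifr window held antioxidant letters (10.2%). The STAT letters were in none of the 10 and in 7.02% of all. A match is a run of letters and not a measured site. The log2 ratios to the control of the genes with AP-1 letters were -0.65 for Il6, -0.39 for Lif and -0.11 for Il11 at BP10, and -0.40, -0.09 and 0.98 at BP40.

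**Figure D5:**
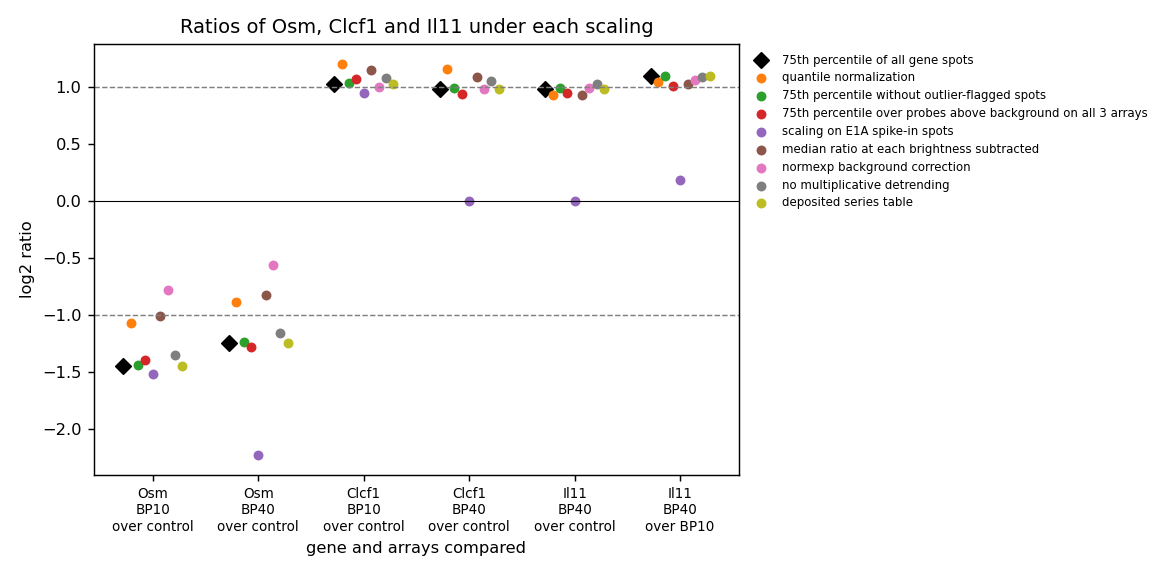
Log2 ratio of Osm, Clcf1 and Il11 in the comparisons named on the horizontal axis, under the scaling used throughout (diamond) and 8 alternatives (circles), with dashed lines at 2-fold. Ratios of Clcf1 and Il11 lie between 0.93 and 1.20 except at BP40 with the E1A spike-in scaling, and those of Osm at BP40 range from -2.23 to -0.56.

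The side of 2-fold on which Osm, Clcf1 and Il11 fell changed with the scaling. At BP40, Clcf1 had ratios of 1.16 with quantile normalization and 0.00 with the spike-in scaling, and Il11 had 1.03 without multiplicative detrending and 0.00 with the spike-in scaling. Osm had a ratio below 0 at both doses under all 8 alternatives, and was past 2-fold lower under 7 of them at BP10 and 5 at BP40, where it was -0.89, -0.83 and -0.56 under the others. These counts include the deposited series table, which holds the same intensities and could not give another ratio.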

How the data were processed

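Gene expression was measured in MEF on 3 arrays, 1 per condition, and samples were grouped by the treatment in the labels. The authors deposited Feature Extraction 10.5.1.1 output, in which the intensity of a spot had its background subtracted and spatial trends removed, with no scaling across arrays. In the series table, also deposited, 100% of spots had equal intensity (relative tolerance 0.0001). The study analyzed the arrays in GeneSpring GX with no normalization named. Columns left unmapped numbered 0.

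Here, spots flagged as outliers were left out, log2 intensity was taken relative to the 75th percentile over all gene spots, and spots of 1 probe were averaged. Probes were named by the RefSeq symbol of their accession (47.5%) or the scanner file. Where a probe was above background on 1 of both arrays, its ratio was taken against its own dim signal or the lowest one called well above background, whichever was higher. Only in the latter case is the ratio a bound. Lists used 1 probe per gene, above background on most arrays and then brightest. All members are named, and, of the other gp130 ligands and receptors, the transducers and brakes and the STAT3-responsive genes, those past 2-fold at both doses in 1 direction or between the doses, with Jak1, Jak2, Tyk2, Stat3 and Socs3, and some genes of the lists are not reported here. Members, cell type markers and lists were chosen with earlier results of these data known. The alternatives were other scalings, background corrections, filters and thresholds. Python 3.11.15, R 4.3.3 and limma 3.58.1 were used. The calling step was run on simulated data with changes set well past the threshold, which does not bear on calls near 2-fold.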

Additional observations from a re-analysis of the deposited data

Results flagged for a closer look

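Il11 had log2 ratios to the control of -0.11 at BP10 and 0.98 at BP40, and stood 1.10 higher at BP40 than at BP10. The BP10 value lay within its scanner error of 0, so it gives no direction. With the spike-in scaling the difference between the doses was 0.18. This difference was not tested, since each dose had 1 array.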

How the results depend on the processing

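No paired analysis was possible because there is 1 array for each condition. With a threshold of 1.5-fold, 5 member probes were past it at BP10, 3 at BP40 and 2 between the doses, and with 3-fold 0 in each comparison. Normexp, whose offset of 50 pulls dim ratios toward 0, left 0 at BP10 and 0 at BP40. Scaling on the 9 E1A spike-in probes gave 1 at BP10 and 9 at BP40, all lower, where it moved the median ratio of all probes by -0.98. Between the doses it gave 1, a Lifr probe and not Il11, with the median of all probes moved by -0.91. Without multiplicative detrending 3 were past it at BP40. Counts stayed within 1.5 times under the other alternatives, but at BP40 quantile normalization and the brightness correction each gave Clcf1 in place of Osm. Of 288 recomputed member ratios, 17 changed sign. The 288 include those from the deposited series table, which could not differ. At BP10, 65.3% of called probes were higher with quantile normalization, 64.6% with the brightness correction and 36.4% with normexp, against 22.7%. At BP40 these were 56.3%, 60.9% and 47.2%, and 1.01% with the spike-in scaling, against 20.9%. Between the doses 33.9% were higher with the 75th percentile of probes bright on all arrays and 1.22% with the spike-ins, against 43.9%. These alternatives moved the median of all probes by 0.24, 0.25 and 0.12 at BP10 and by 0.19, 0.19 and 0.17 at BP40. Signal over background limits Osm and Lif most, which read 80.6 and 102 on BP10, where the lowest probe well above background read 41.9.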

Other observations

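Some genes of other cell types read well above background in these cultures. The main probe of Cd4, a T cell co-receptor, read 8573 on control, 4281 on BP10 and 3877 on BP40. A far dimmer Cd4 probe read 303, 136 and 137. Cd3e read 5305, 1984 and 2188, and Elane, a neutrophil protease, read 6327, 3129 and 3447. Other genes of the same cells, Cd3g and S100a8, were not well above background on any array.

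Of 5 pluripotency genes, Pou5f1 read 83.5 on control, 19.7 on BP10 and 17.5 on BP40, well above background on control only. Its bounds were 1.62-fold lower at BP10 and 2.02-fold lower at BP40 than on control. As log2 ratios they were -0.69 ± 0.72 and -1.02 ± 0.70, so neither passed 2 times its scanner error. These bounds are set by the lowest probe well above background, which read 41.9 on BP10 and 28.9 on BP40. The main Nanog probe read 897, 974 and 796, with ratios of 0.42 and 0.34, and a dimmer one read 183, 136 and 78.7, with ratios of -0.12 and -0.71. The main Esrrb probe read 704, 252 and 238. Sox2 and Zfp42 were above background on none of the 3 arrays.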
